A study of Sus scrofa with 9 samples.

Results

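The probes described here are those whose array annotation names the proteasome, a ubiquitin-conjugating enzyme or a ubiquitin carboxyl-terminal hydrolase. They number 44 of the 43603 non-control probes of a porcine array and stand for 32 genes. RNA came from whole blood of male, specific-pathogen-free Clawn miniature pigs that were fed azide by mouth at 300 µg/kg, which is 0.01 of the median lethal dose. Blood was taken before feeding, 6 h after feeding and 24 h after feeding, with 3 arrays at each time and 9 arrays in all. The labels give the pigs' age as 7 months in most places and as 7 weeks in the sample descriptions, and whether arrays of equal replicate number stem from one animal is not stated. No untreated or sham-fed pigs sampled at 6 h or 24 h were analysed here, so azide and the passage of time cannot be told apart.

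The ubiquitin-proteasome system removes proteins that have been tagged with ubiquitin. E1, E2 and E3 enzymes attach the tag in sequence, deubiquitinases take it off, and the 26S proteasome unfolds and cuts the tagged protein in a core particle capped by a regulatory particle. In immune cells, and in other cells exposed to interferon gamma, the catalytic subunits PSMB5, PSMB6 and PSMB7 can be replaced by PSMB8, PSMB9 and PSMB10, which form the immunoproteasome, and the PA28 activator built from PSME1 and PSME2 can cap the core. These exchanges alter the peptides that are cut for display on MHC class I, and blood leukocytes carry large amounts of immunoproteasome.

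Each value rests on 1 probe of 60 bases, so the sequences of the probes that carry the main contrasts are given first, as the array files list them, in lower case throughout. PSMB8 and PSMB10 probe A are the immunoproteasome probes that differed in direction at 6 h, and PSMB7 is the constitutive subunit that PSMB10 replaces.
PSMB8: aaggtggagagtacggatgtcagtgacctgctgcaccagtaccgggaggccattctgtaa
PSMB10 probe A: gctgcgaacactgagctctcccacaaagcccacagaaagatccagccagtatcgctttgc
PSMB7: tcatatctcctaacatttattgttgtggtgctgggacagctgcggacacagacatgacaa

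The next set shows the activator subunits, with PSME1 and PSME2 lower and PSME3 higher at 6 h, and the PSMD4 probes, which target separate stretches of one transcript and did not move alike.
PSME1: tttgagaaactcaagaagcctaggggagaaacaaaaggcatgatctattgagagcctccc
PSME2 probe B: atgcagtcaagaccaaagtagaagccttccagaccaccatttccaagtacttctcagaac
PSME3: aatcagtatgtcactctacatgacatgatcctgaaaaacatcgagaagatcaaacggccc
PSMD4 probe A: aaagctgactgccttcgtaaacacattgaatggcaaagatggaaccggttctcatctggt
PSMD4 probe B: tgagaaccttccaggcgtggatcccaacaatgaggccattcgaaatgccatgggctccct

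Between 39.9% and 56.6% of the probes on an array were well above background, and no member was saturated. Testing required a signal well above background on every array of 1 group or more, which left 19783 probes, 29 members among them from 23 genes. All signals below are log2 intensity minus the array's own 75th percentile, called scaled log2 signals, and a difference is one group's mean minus another's. Signals of different probes are not comparable as levels. Each time point was hybridised on its own slide and scanned separately, so slide and time cannot be told apart. Centring the arrays on spike-in control spots in place of the 75th percentile raised the median difference of all tested probes to 0.27 at 6 h and 0.99 at 24 h, both against before feeding, and turned the sign of 7 and 21 of the 29 members. Every direction below is therefore relative to the bulk of the array. The 4 other scalings referred to below are quantile normalization, normexp background correction, the authors' deposited values and another percentile set. The deposited values gave member differences close to those with quantile normalization, so they do not count as a separate check. In whole blood, fewer cells of a type and less RNA per cell cannot be told apart.

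Of the 29 tested members, 28 were well above background on all 9 arrays. The exception, p112 probe A, entered only through the 24 h arrays and was dim throughout. All 12 members annotated to a pig RefSeq transcript were above background on all 9 arrays. Of the 32 members that stand on assembled contigs matched to a protein or mRNA, 17 were tested. The contig names are less secure. The annotation calls the match partial, at 7% for beta type 3, whose best match is a protein of a protozoan parasite, and at 4% for ECM29. It is 18% for PSMD8, 21% for PSMD12, 23% for UBE2D2, 38% for TRIAD3 and 39% for USP30, and 88% for UBE2D3.

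No member passed an adjusted p of 0.05 in any of the 3 comparisons by limma with Benjamini-Hochberg adjustment over the 19783 probes. Over all tested probes that threshold was passed by 0.0253% at 6 h against before feeding, 0.0% at 24 h against before feeding and 0.0% at 24 h against 6 h. At an unadjusted limma p under 0.05, 1 of 29 members differed at 6 h against before feeding, beside 25.5% of all tested probes. The count was 2 of 29 at 24 h against before feeding, beside 13.9%, and 6 of 29 at 24 h against 6 h, beside 21.6%. The members' share was thus below that of all tested probes in the comparisons with before feeding and close to it between the later times. These counts moved with the processing. At 6 h the members lower at an unadjusted p under 0.05 were 6 with quantile normalization. Without 6 h replicate 2 they were 7, and 2 more were higher. At 24 h against before feeding the members lower were 7 without 6 h replicate 2, through the shared estimate of spread. The shares of all tested probes in these settings were not counted, so these numbers are no result about the members. Without 6 h replicate 2, 2396 of all tested probes passed even the adjusted threshold at 6 h. The first and second comparisons share the arrays taken before feeding, and the third reuses the arrays of both later times.

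**Figure D1:**
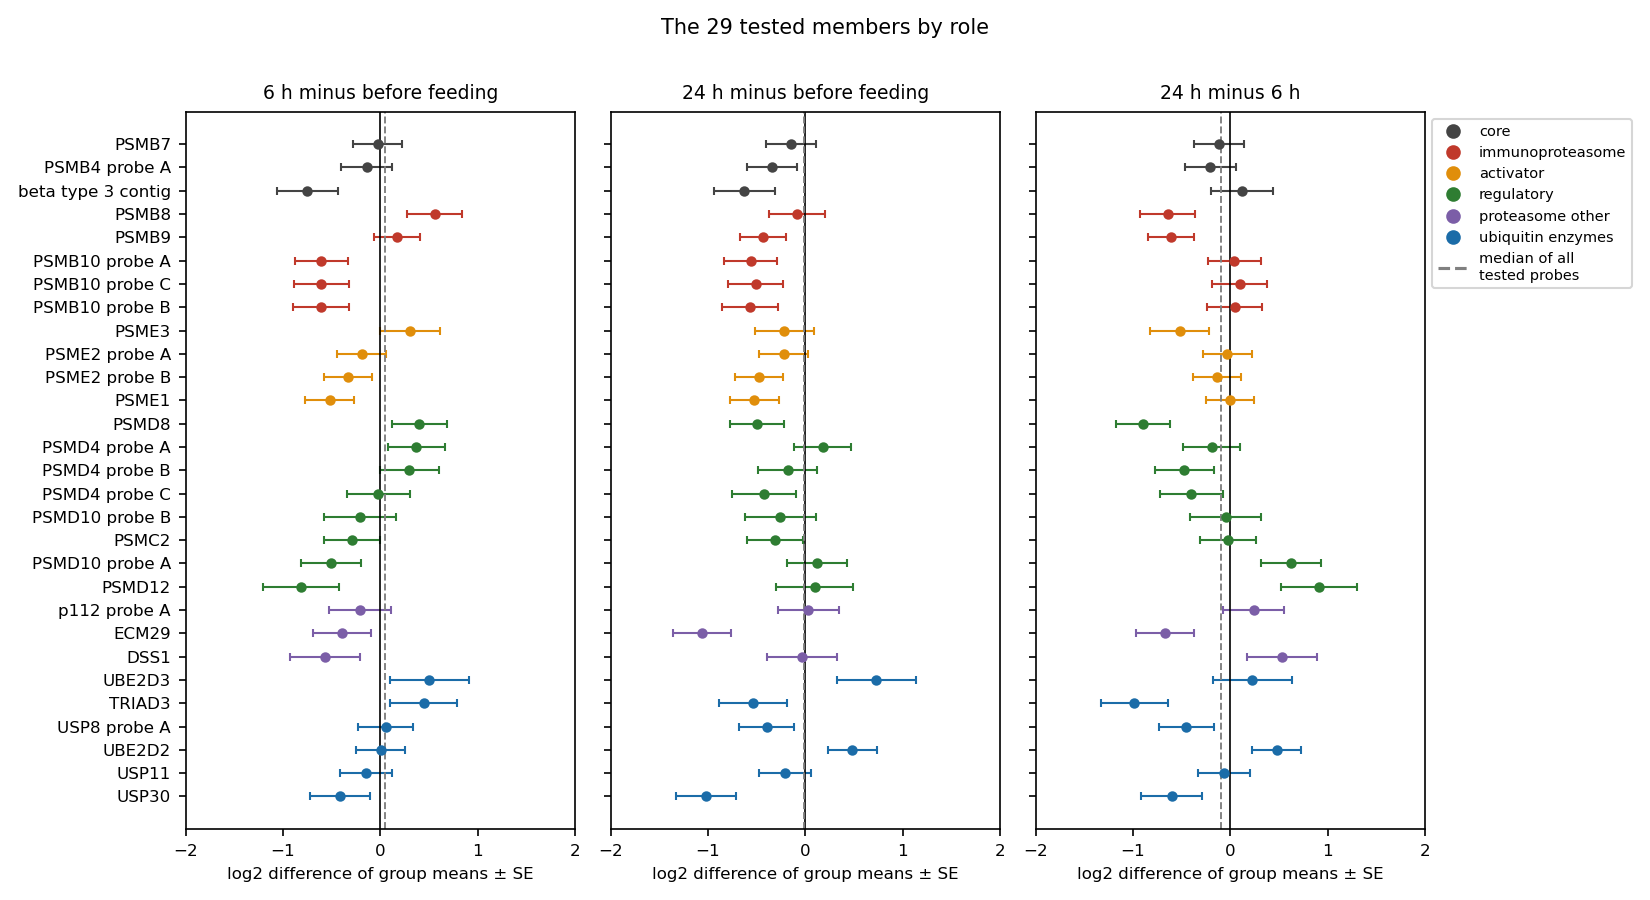
Log2 differences of group means with their limma standard errors for the 29 tested members, sorted by role, for 6 h minus before feeding, 24 h minus before feeding and 24 h minus 6 h (3 arrays a group). At 24 h against before feeding 23 of 29 points lie left of 0, and the dashed line marks the median of all tested probes, 0.05, -0.01 and -0.09 in the 3 panels.

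Differences below 0 outnumbered those above 0. Against before feeding, 19 of 29 members lay below 0 at 6 h, beside 47.4% of all tested probes, and 23 of 29 at 24 h, beside 50.9%. Between the later times it was 19 of 29, beside 56.3%. The median member difference was -0.19 at 6 h, against 0.05 over all tested probes, and -0.31 at 24 h, against -0.01. By role, the 5 immunoproteasome probes had the lowest medians, -0.60 at 6 h and -0.51 at 24 h. The 3 core probes stood at -0.14 and -0.34, the 4 activator probes at -0.26 and -0.34, and the 8 regulatory-particle probes at -0.11 and -0.22. The 6 ubiquitin-enzyme probes had medians of 0.03 at 6 h and -0.30 at 24 h, which pool 2 kinds of enzyme. The 3 probes annotated as E2 had medians of 0.45 and 0.48, and the 3 deubiquitinase probes -0.15 and -0.39. Members of a kind did not all go with its median. TRIAD3, annotated as E2 but itself an E3 ligase, stood at 0.45 and -0.54, and its value was the 6 h median. UBE2D2 stood at 0.01 and 0.48 and UBE2D3 at 0.50 and 0.73. Of the deubiquitinases, USP8 was at 0.06 at 6 h. The immunoproteasome median was set by the 3 probes of PSMB10: with 1 probe per gene, the class median at 6 h relative to all tested probes was 0.13, in place of -0.65.

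Among core subunits, PSMB7, the trypsin-like catalytic subunit of the constitutive core, had scaled log2 signals of 1.94, 2.25 and 2.43 before feeding, 2.10, 2.28 and 2.16 at 6 h, and 1.89, 2.21 and 2.09 at 24 h. The 3 groups overlapped, with differences of -0.03 at 6 h and -0.14 at 24 h, both against before feeding and both with a standard error of 0.25. PSMB4, a structural beta subunit, gave 5.19, 5.08 and 5.17 before feeding, 4.73, 5.05 and 5.23 at 6 h, and 4.59, 4.78 and 5.03 at 24 h. Its 24 h arrays all lay below the arrays taken before feeding, by a mean of 0.34, and its 6 h arrays overlapped them. With normexp background correction the 24 h difference shrank to -0.03. The contig probe named beta type 3 was the only member at an unadjusted p under 0.05 at 6 h, where it was lower, beside 10.9% of all tested probes. It gave 1.27, 1.85 and 0.92 at 6 h, against 2.53, 1.96 and 1.80 before feeding, a difference of -0.75 ± 0.31 (SE, n = 3 each, limma adjusted p = 0.173), and 1.44, 1.49 and 1.48 at 24 h. One 6 h array, replicate 2, reached the range seen before feeding.

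No alpha subunit could be followed. The probes of PSMA5 and PSMA6, parts of the rings that gate the core, were above background on 0 of 9 arrays, as were PSMB4 probe B and p27 probe B. PSMB5 and PSMB6 are not among the members, so the constitutive partners of PSMB8 and PSMB9 were not analysed here.

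The 3 immunoproteasome subunits did not move alike. PSMB8, the chymotrypsin-like immune subunit, gave 4.27, 4.48 and 4.32 before feeding, 4.99, 4.43 and 5.33 at 6 h, and 4.31, 4.20 and 4.31 at 24 h. At 6 h, replicates 1 and 3 were above every other array while replicate 2 lay within the range before feeding. The 6 h mean was 4.92 ± 0.45, against 4.36 ± 0.11 before feeding (SD, n = 3 each), a difference of 0.56 ± 0.28 (SE), or 1.47-fold higher, with a limma adjusted p of 0.242. With quantile normalization the 6 h difference was 0.30. At 24 h PSMB8 averaged 4.28 ± 0.06 (SD, n = 3), a difference of -0.08 from before feeding whose sign turned under all 4 other scalings (0.03 to 0.18).

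PSMB9, the caspase-like position's immune replacement, gave 6.47, 6.47 and 6.35 before feeding, 6.47, 6.64 and 6.70 at 6 h, and 6.03, 6.00 and 5.96 at 24 h. Its 24 h arrays formed a tight group below all others. The difference at 24 h against before feeding was -0.44 ± 0.24 (SE, limma adjusted p = 0.438) and at 24 h against 6 h -0.61 ± 0.24 (SE, limma adjusted p = 0.180). Both depended on the scaling: the first was -0.11 with normexp background correction, and the second was -0.05 with quantile normalization and -0.04 in the authors' deposited values. At 6 h it stood 0.17 above before feeding, a sign that turned to -0.21 with quantile normalization and to -0.17 in the authors' deposited values.

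PSMB10, which takes the place of PSMB7, was read by 3 probes, of which B and C share 50 bases and are not separate readings. Probe A gave 5.11, 5.45 and 5.33 before feeding, 4.72, 5.06 and 4.30 at 6 h, and 4.83, 4.69 and 4.69 at 24 h. All later arrays of probe A lay below all arrays taken before feeding. Probe B gave 4.31, 4.93 and 4.02 at 6 h and 4.47, 4.38 and 4.55 at 24 h, against 5.10, 4.91 and 5.07 before feeding, and probe C gave 3.42, 4.13 and 3.31 at 6 h and 3.71, 3.59 and 3.85 at 24 h, against 4.27, 4.26 and 4.16 before feeding. For both, replicate 2 was again the 6 h array nearest to the values before feeding, and for probe B it overlapped them.

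The 3 PSMB10 probes differed from before feeding by nearly the same amount. At 6 h the differences were -0.60, -0.61 and -0.61 for probes A, B and C, with standard errors of 0.28 to 0.29 and limma adjusted p of 0.199, 0.210 and 0.206. At 24 h they were -0.56, -0.56 and -0.51, with limma adjusted p of 0.394, 0.410 and 0.447. Probe A was thus 1.52-fold lower at 6 h and 1.48-fold lower at 24 h than before feeding, without passing the threshold. The sign held under the 4 other scalings, where probe A ran from -0.87 to -0.50 at 6 h and from -0.45 to -0.22 at 24 h, and with spike-in centring it held at 6 h (-0.38 for each probe) and turned at 24 h (0.44 to 0.49). Without 6 h replicate 2, probe C passed the threshold at 6 h (-0.86, limma adjusted p = 0.0480). In that setting 2396 of all tested probes passed at 6 h, with probe C alone among the members. The limma adjusted p of probe C at 6 h ran from 0.0480 to 0.496 over the settings other than spike-in centring and leaving out a 24 h array.

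**Figure D2:**
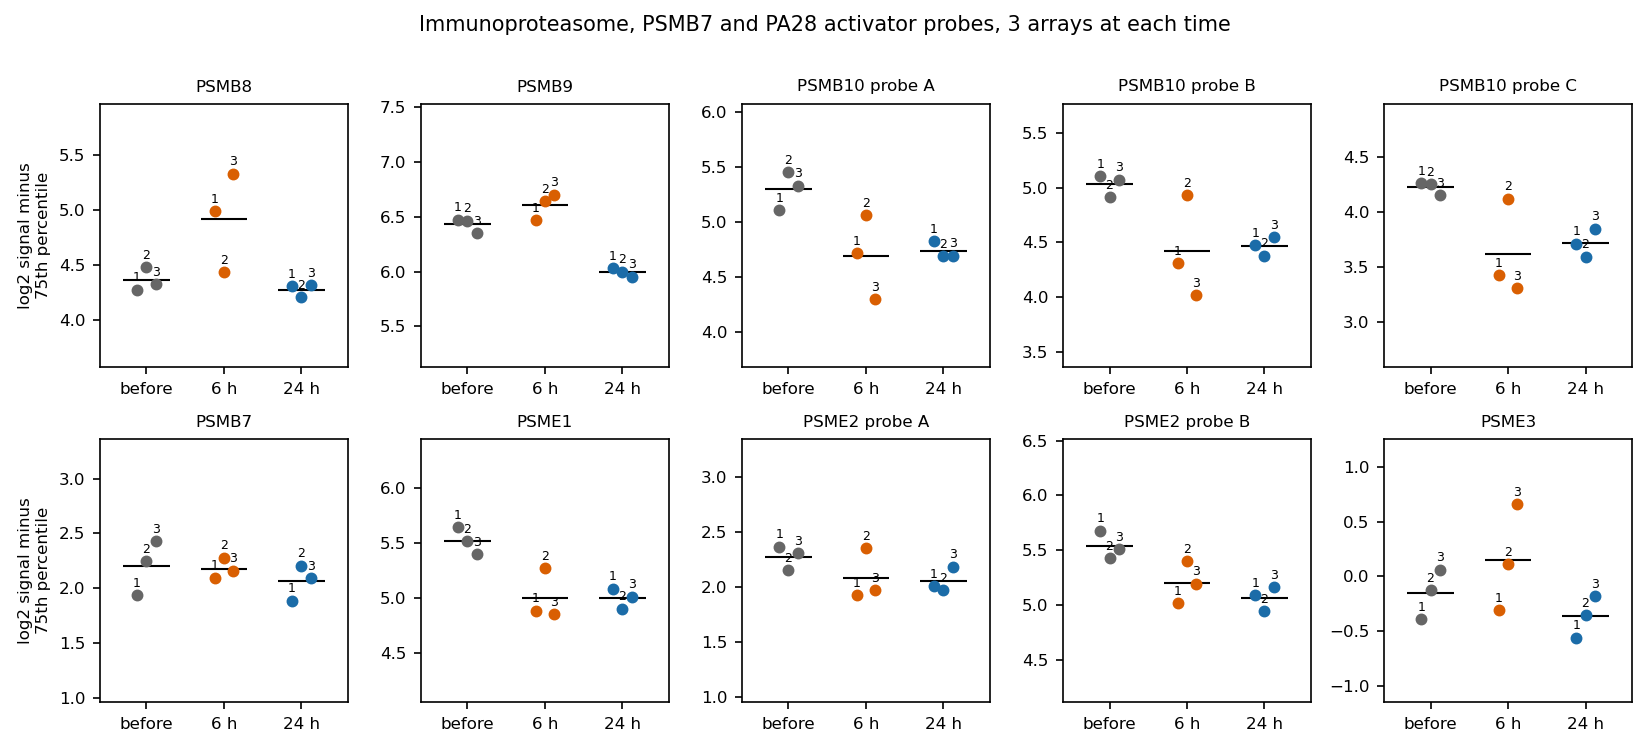
Scaled log2 signal (log2 intensity minus the array's 75th percentile) of the immunoproteasome, PSMB7 and activator probes on each of the 9 arrays. Points carry their replicate number, bars are group means of 3 arrays, and each panel has its own vertical range. PSMB8 was highest on 6 h replicates 1 and 3, whereas the 3 PSMB10 probes and PSME1 were lowest or near lowest on those arrays.

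The ratio of probes on one array is the same whichever percentile set or control spots the array is centred on, but quantile normalization and background correction can alter it. Of 18 such ratios computed, the following were picked after their values were seen and are a description without a test. PSMB8 minus PSMB10 probe A, set to a mean of 0 before feeding, was 1.21, 0.31 and 1.97 at 6 h and 0.42, 0.45 and 0.56 at 24 h, against 0.10, -0.04 and -0.07 before feeding. All later arrays lay above all arrays taken before feeding, and at 6 h the ratio was smallest on replicate 2. With PSMB10 probe B in the place of probe A, 6 h replicate 2 stood at 0.17 and overlapped the values before feeding, which reached 0.24. The mean ratio of PSMB8 to probe A was 1.16 at 6 h and 0.48 at 24 h, against 1.17 and 0.51 with quantile normalization and 1.02 and 0.41 with normexp. PSMB9 minus PSMB10 probe A was 0.62, 0.45 and 1.27 at 6 h, against 0.23, -0.12 and -0.11 before feeding, and 0.07, 0.18 and 0.13 at 24 h, where it overlapped the values before feeding. PSMB10 probe A minus PSMB7 was -0.47, -0.31 and -0.95 at 6 h, against 0.08, 0.11 and -0.19 before feeding, and -0.15, -0.61 and -0.49 at 24 h. It did not overlap at 6 h and overlapped at 24 h. With PSMB10 probes B and C in the place of probe A, the 6 h ratio to PSMB7 overlapped the values before feeding.

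**Figure D3:**
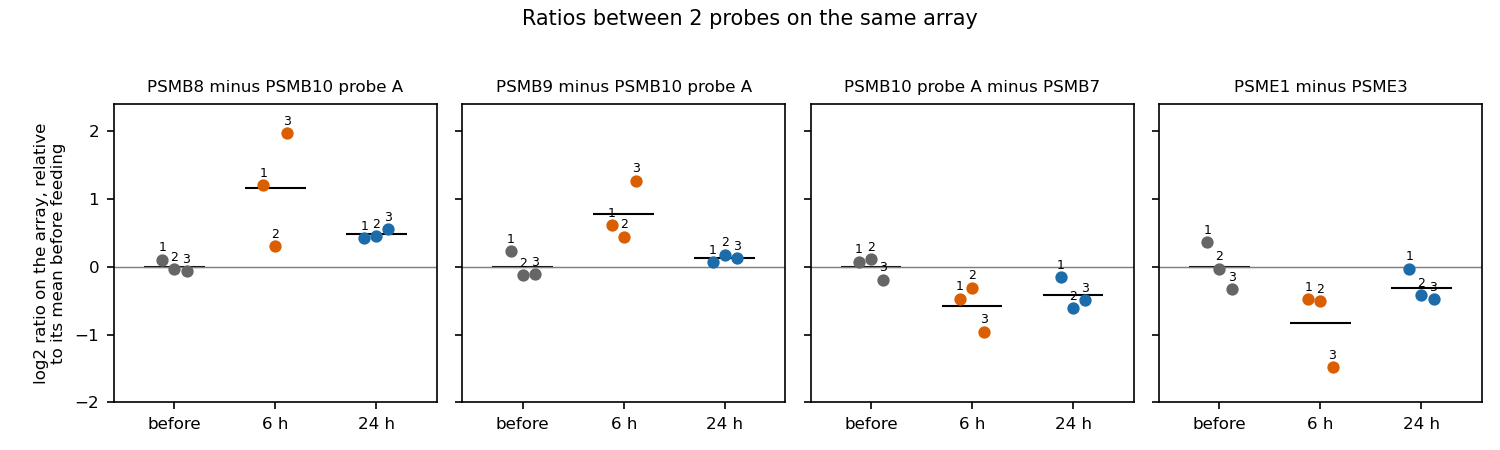
Log2 ratio between 2 probes on the same array, relative to the mean ratio before feeding, for 4 pairs on 9 arrays. Points carry their replicate number and bars are group means of 3 arrays. PSMB8 minus PSMB10 probe A lies between 0.31 and 1.97 at 6 h and between 0.42 and 0.56 at 24 h, above the -0.07 to 0.10 seen before feeding.

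The PA28 activator subunits partner in one ring. PSME1, its alpha subunit, gave 5.64, 5.52 and 5.40 before feeding, 4.88, 5.27 and 4.85 at 6 h, and 5.08, 4.90 and 5.01 at 24 h. All later arrays lay below all arrays taken before feeding, and the difference was -0.52 ± 0.25 (SE) at both times, with limma adjusted p of 0.220 at 6 h and 0.386 at 24 h. Over the 4 other scalings it ran from -0.81 to -0.50 at 6 h and from -0.41 to -0.22 at 24 h. PSME2, the beta subunit, gave 5.68, 5.43 and 5.51 before feeding on probe B, 5.02, 5.40 and 5.19 at 6 h, and 5.09, 4.95 and 5.17 at 24 h. These groups did not overlap either, with differences of -0.33 (limma adjusted p = 0.411) and -0.47 (limma adjusted p = 0.425), which ran from -0.65 to -0.23 and from -0.36 to -0.15 over the 4 other scalings.

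PSME2 probe A, on another stretch of the transcript, showed smaller differences of -0.19 at 6 h and -0.22 at 24 h, and its 24 h sign turned to 0.01 with normexp background correction. PSME3, which forms the separate PA28 gamma ring of the nucleus, gave -0.39, -0.12 and 0.06 before feeding, -0.31, 0.11 and 0.66 at 6 h, and -0.56, -0.35 and -0.18 at 24 h. Its groups overlapped, with differences of 0.30 ± 0.31 at 6 h and -0.22 ± 0.31 at 24 h (SE). On the same array, PSME1 minus PSME3 was -0.48, -0.51 and -1.48 at 6 h, below the 0.36, -0.03 and -0.33 seen before feeding, and -0.03, -0.41 and -0.48 at 24 h, which overlapped them. Its mean at 24 h was -0.31, against -0.15 with quantile normalization and -0.03 with normexp, and at 6 h -0.82, against -1.11 and -0.67.

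In the RefSeq pig annotation PSMB8 and PSMB9 flank TAP1, and EMC9 alone lies between PSME2 and PSME1. TAP1, the transporter that carries proteasome-cut peptides into the endoplasmic reticulum, gave 1.96, 1.69 and 1.94 before feeding, 3.12, 1.94 and 3.43 at 6 h, and 2.69, 2.20 and 2.83 at 24 h. At 6 h it was high on replicates 1 and 3 and, like PSMB8, reached the range before feeding on replicate 2. Its difference was 0.97 at 6 h (limma adjusted p = 0.157) and 0.71 at 24 h (limma adjusted p = 0.437). The 5 measured interferon gamma response regulators of 10 listed had a median difference of 0.92 at 6 h. Of these, 3 were higher at an unadjusted p under 0.05, beside 14.7% of all tested probes, and 0 passed the threshold.

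Neutrophil, monocyte and T-cell markers moved with the 6 h values. The 4 measured neutrophil markers of 16 listed, averaged as deviations from before feeding, were 2.32, 1.20 and 3.33 higher on 6 h replicates 1, 2 and 3, and 0.72, 0.72 and 0.17 higher at 24 h, against -0.40 to 0.35 before feeding. The 7 tested monocyte markers of 13 listed were 1.49, 1.05 and 2.62 higher at 6 h and 0.04, 0.36 and 1.15 higher at 24 h, against -0.22 to 0.29 before feeding. The 9 measured T-cell markers of 14 listed stood at -0.78, -0.32 and -1.43 at 6 h and between -0.21 and -0.13 at 24 h, against -0.17 to 0.23 before feeding. Replicate 2, where PSMB8 and PSMB10 lay nearest to the values before feeding, also had the smallest deviation of the 6 h arrays in these 3 marker lists. The 4 measured platelet markers went otherwise, at 0.07, 0.91 and -0.04 at 6 h, within the -1.20 to 1.13 seen before feeding. The 3 measured NK and cytotoxic markers stood at -1.39, -0.31 and -1.53 at 6 h, against -0.67 to 0.66 before feeding. The 1 measured B-cell marker stood at 0.33, 0.16 and -0.87 at 6 h. The part of cell markers in the results was not tested. No marker of the red-cell list had a named probe, so the share of red-cell RNA was not analysed here.

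The regulatory particle recognises ubiquitin and unfolds the substrate. PSMD8, a lid subunit, gave 5.77, 6.18 and 5.94 before feeding, 6.02, 6.30 and 6.77 at 6 h, and 5.35, 5.52 and 5.53 at 24 h. The 24 h arrays lay below all others, and the 24 h minus 6 h difference of -0.90 ± 0.28 (SE) was 1.86-fold lower, with the smallest adjusted p of any member in any comparison (limma adjusted p = 0.130). Against before feeding PSMD8 stood at 0.40 at 6 h and -0.49 at 24 h. The 6 h difference was nearly absent with quantile normalization (0.01) and in the authors' deposited values (0.06), and the 24 h minus 6 h difference was then -0.36 and -0.35. With normexp the 24 h difference from before feeding was -0.17.

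PSMD12, another lid subunit, ran the other way between the later times. It gave -0.08, -1.11 and -0.40 before feeding, -1.90, -0.87 and -1.25 at 6 h, and -0.70, -0.74 and 0.15 at 24 h. The 24 h arrays lay above the 6 h arrays, by 0.91 ± 0.39 (SE, limma adjusted p = 0.214; 0.44 to 1.13 over the 4 other scalings), while both overlapped the values before feeding. It was the 1 member higher at an unadjusted p under 0.05 at 24 h against 6 h, beside 7.97% of all tested probes, and 5 members were lower (PSMB8, PSMB9, PSMD8, ECM29 and TRIAD3), beside 13.6%. These 6 and UBE2D2, which was higher, are the 7 of 29 members without overlap between the later times, beside 26.5%.

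PSMD4, a subunit that binds ubiquitin chains, was read by 3 tested probes that differed in sign at 24 h against before feeding. Probe A stood at 0.37 at 6 h and 0.18 at 24 h, probe B at 0.30 and -0.18, and probe C at -0.02 and -0.42, with standard errors of 0.30 to 0.32. The 24 h sign of probe B turned to 0.11 with normexp. Within an array, probe A minus probe B was 0.33, 0.34 and 0.39 at 24 h, against 0.06, -0.05 and -0.02 before feeding, so that the probes of this transcript separated without overlap.

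The ATPase PSMC2, part of the ring that threads substrates into the core, stood at -0.29 at 6 h and -0.31 at 24 h. PSMD10 (gankyrin), an assembly chaperone of the base, had probes at -0.50 and -0.21 at 6 h and at 0.12 and -0.25 at 24 h, so its probes differed in sign at 24 h. All groups of PSMC2 and of both PSMD10 probes overlapped.

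ECM29 is an adaptor that holds core and regulatory particle together. Its contig probe gave 1.13, 1.87 and 0.92 before feeding, 0.96, 0.94 and 0.84 at 6 h, and 0.10, 0.43 and 0.21 at 24 h. The 24 h arrays were the lowest, without overlap with either other time. The 24 h mean was 0.25 ± 0.17, against 1.31 ± 0.50 before feeding (SD, n = 3 each), a difference of -1.06 ± 0.30 (SE), or 2.08-fold lower, at a limma adjusted p of 0.240, and it ran from -1.05 to -0.66 over the 4 other scalings. DSS1, a small lid subunit, stood at -0.57 at 6 h and -0.04 at 24 h, and p112 (PSMD1, the large scaffold of the base) at -0.21 and 0.03.

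Among deubiquitinases, USP30, an enzyme of the mitochondrial outer membrane, gave 1.93, 2.47 and 1.73 before feeding, 1.69, 1.71 and 1.48 at 6 h, and 0.88, 1.50 and 0.69 at 24 h. Both later groups lay below the arrays taken before feeding. The 24 h mean was 1.02 ± 0.42, against 2.04 ± 0.38 before feeding (SD, n = 3 each), a difference of -1.02 ± 0.31 (SE), or 2.02-fold lower, at a limma adjusted p of 0.244, and it ran from -0.98 to -0.66 over the 4 other scalings. USP30 and ECM29 were the 2 members at an unadjusted p under 0.05 at 24 h against before feeding, both lower, beside 8.56% of all tested probes, and 0 members were higher, beside 5.32%. USP8, which acts on endosomal cargo, stood at 0.06 at 6 h and -0.39 at 24 h on its tested probe, and USP11, a nuclear deubiquitinase, at -0.15 and -0.21.

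The E2 enzymes UBE2D2 and UBE2D3, close relatives that serve many E3 ligases, were the members with the highest 24 h differences. UBE2D2 gave 2.37, 2.19 and 2.31 before feeding, 2.00, 2.37 and 2.50 at 6 h, and 2.70, 2.76 and 2.85 at 24 h. The 24 h arrays lay above all others, by 0.48 ± 0.25 (SE, limma adjusted p = 0.420) against before feeding, or 1.40-fold. UBE2D3 gave 1.66, 1.11 and 2.11 at 24 h, against 1.44, 0.29 and 0.97 before feeding, a difference of 0.73 ± 0.41 (SE, limma adjusted p = 0.447), and 1.11, 1.06 and 2.04 at 6 h. Its groups overlapped. The 24 h sign of both held under every scaling run, spike-in centring included.

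TRIAD3 matched the annotation rule through an older name that calls it an interacting protein of an E2, and it is itself an E3 ligase. It gave 3.28, 3.89 and 3.52 before feeding, 4.05, 3.37 and 4.61 at 6 h, and 2.84, 3.27 and 2.97 at 24 h. The 24 h arrays lay below all others, and the difference at 24 h against 6 h was -0.98 ± 0.35 (SE), or 1.98-fold lower, with a limma adjusted p of 0.153, and it ran from -0.77 to -0.63 over the 4 other scalings. Without 6 h replicate 2 this difference passed the threshold (-1.31, limma adjusted p = 0.0401). In that setting 1767 of all tested probes passed between the later times, with TRIAD3 alone among the members. The limma adjusted p of this TRIAD3 difference ran from 0.0401 to 0.430 over the settings other than spike-in centring and leaving out an array taken before feeding.

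**Figure D4:**
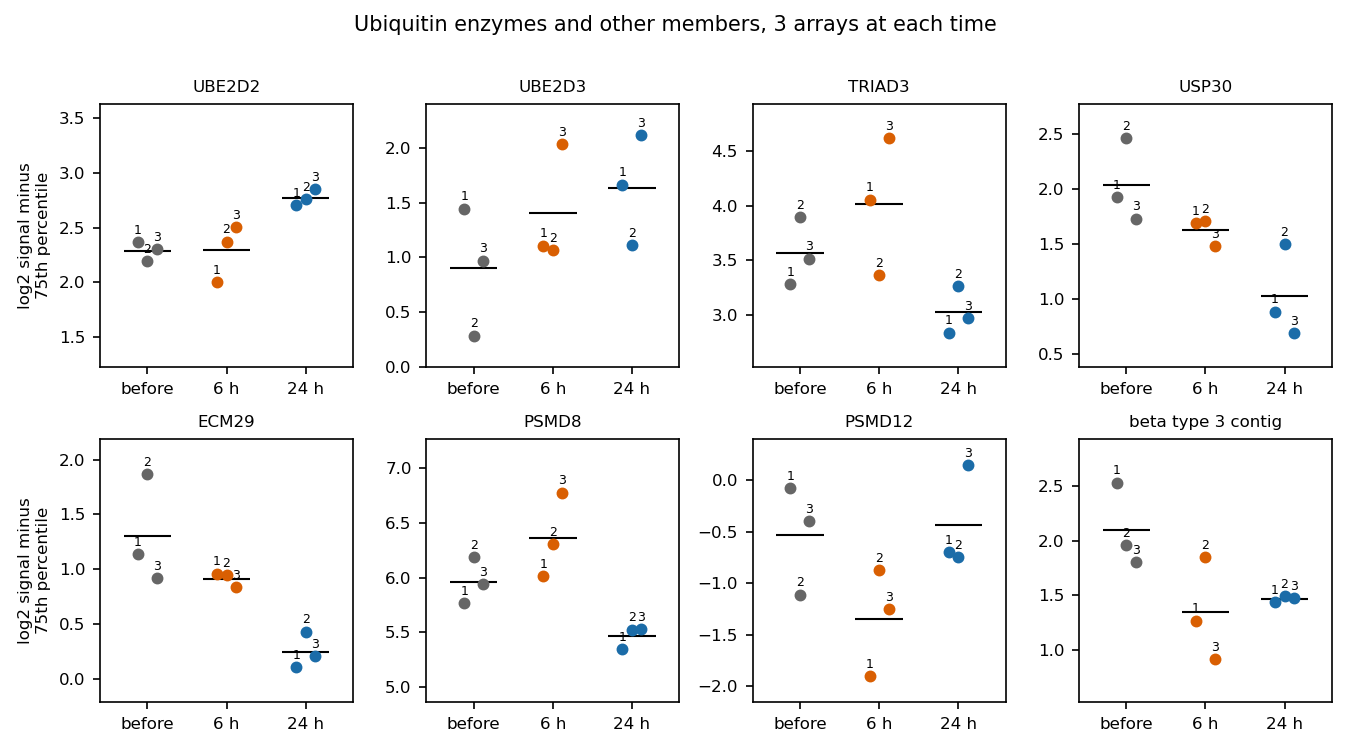
Scaled log2 signal (log2 intensity minus the array's 75th percentile) of 8 ubiquitin enzymes and other proteasome members on each of the 9 arrays. Points carry their replicate number, bars are group means of 3 arrays, and each panel has its own vertical range. UBE2D2 is higher and USP30, ECM29, PSMD8 and TRIAD3 are lower on all 24 h arrays than on all arrays before feeding.

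Separation of the groups, without regard to spread, differed between the times. At 6 h against before feeding, 5 of 29 members did not overlap (PSME1, PSME2 probe B, PSMB10 probes A and C, USP30), beside 26.6% of all tested probes. All 5 were lower, where 10.6% of all tested probes were lower without overlap. At 24 h against before feeding 13 of 29 did not overlap, beside 26.5%. Of these, 12 were lower, beside 19.0%, and UBE2D2 alone was higher, beside 7.5%. The 12 include PSMB10 probes A, B and C, of which B and C share 50 bases and are not separate readings.

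Bright probes in general had lower values at 24 h. Among all tested probes between the 90th and 95th percentile of mean signal, the median 24 h difference from before feeding was -0.22, and between the 95th and 99th it was -0.27, whereas it was 0.12 in the dimmer 50%. The members in those bright ranges, 7 and 3 probes, had medians of -0.47 and -0.44. At 6 h the same ranges of all tested probes had medians of 0.21 and 0.17, and the members in them had -0.33 and 0.17. All probes of PSMB8, PSMB9 and PSME1 lay in these bright ranges, as did PSMB10 probes A and B. The other members there were PSMD8, PSME2 probe B, PSMB4 probe A and PSMD4 probes B and C. The part of signal brightness in the 24 h values was not tested.

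**Figure D5:**
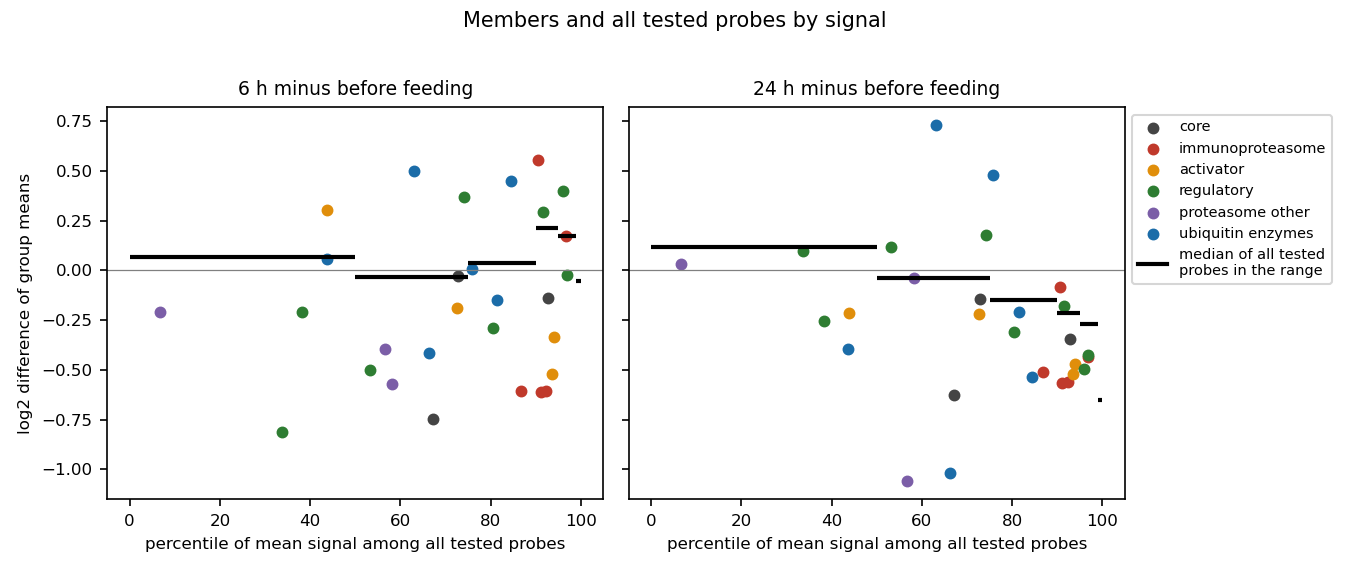
Log2 difference of group means against the percentile of mean signal among all tested probes, for 6 h and for 24 h minus before feeding. Points are the 29 tested members coloured by role, and black bars are medians of all tested probes in 6 signal ranges. At 24 h the bars run from 0.12 in the dimmest range to -0.65 in the brightest, which holds no member.

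The other pathway genes given here come from lists of named genes, none of their probes passed the threshold, and their values do not stand for the pathway as a whole. Of 36 listed E3 ligases and adaptors 3 were tested, with median differences from before feeding of -0.10 at 6 h and 0.04 at 24 h. The segregase VCP, which pulls ubiquitin-tagged proteins out of complexes and membranes, stood at -0.17 at 6 h and 0.01 at 24 h.

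The 10 untested members above background on some arrays give presence only. p112 probe B and USP8 probe B were above background on 1 of 3 arrays before feeding, 2 of 3 at 6 h and 2 of 3 at 24 h. UBE2T, an E2 of DNA crosslink repair, was above background on 2 arrays before feeding, 0 at 6 h and 2 at 24 h. PSMD4 probe D was above background on 1 array at each later time, USP44 on 1 at 6 h, and USP47 and E2-32k on 1 each at 24 h. UBE2B, PSMD11 and p27 probe A were above background on none before feeding and on up to 2 arrays at a later time.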

How the data were processed

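Whole-blood RNA kept in PAXgene tubes was labelled with Cy3 and hybridised to 1-colour Agilent porcine arrays, per the labels' protocols. The deposited scanner files hold spot intensity that is background-subtracted and, per the file headers, not normalized between arrays. Feature Extraction is version 10.5.1.1 per the file headers but version 9.5.3.1 per the submitters' processing notes. The deposited series-wide values are intensity that the authors had scaled between arrays, by a method not given in the sources used here. On all 9 arrays they have the same maximum, 210560, and medians of 11.37 to 11.44. They were used as an alternative, with member differences close to those of quantile normalization, and are not a check separate from it.

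Control spots and outlier spots were left out, spots of one probe averaged, and each array's 75th percentile subtracted from log2 intensity. Of 43603 probes, 19783 were tested with limma 3.58.1 in R 4.3.3 (lmFit and eBayes), with all 9 arrays in one fit, 6 residual degrees of freedom and Benjamini-Hochberg adjustment over all tested probes. The procedure was tested on simulated data. With 3 arrays a group, the number of arrays limits the precision, and p-values reflect variation among these samples only, which may be technical.

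Members and gene lists were chosen with earlier results of these data known. The text names every probe of beta types 5 to 10 and of activator subunits 1 to 3, and in each role and comparison up to 2 probes a direction with the smallest unadjusted p under 0.05. It names the other members to account for all of them. Genes of other lists were named after their values were seen, and 2 lists of pathway genes are not reported here. Symbols came from the files' annotation and matched 2875 of the 43603 probes, and neighbouring genes came from the RefSeq pig table. Correlations of deviations ran from -0.20 to 0.64 for same-numbered arrays of different times and from -0.63 to 0.43 for arrays of unlike number. These overlapping ranges do not settle whether equal numbers are one animal. Replicate number was no block in the main fit, because the labels do not state such a pairing. Alternatives were quantile normalization, normexp background correction with offset 50, the deposited values, another percentile set, other filters, other fits, leaving out each array, and spike-in centring.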

Additional observations from a re-analysis of the deposited data

Results flagged for a closer look

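For 3 members the 6 h and 24 h arrays lay on opposite sides of the mean before feeding, each with all 3 arrays. The share of all tested probes that did so was not counted. Lack of overlap between the later times, which this requires, was seen in 26.5% of all tested probes. PSMD8 differed by -0.90 between 24 h and 6 h (0.40 at 6 h, -0.49 at 24 h, limma adjusted p = 0.130). PSMB8 differed by -0.64 (0.56 at 6 h, -0.08 at 24 h, limma adjusted p = 0.223) and PSMB9 by -0.61 (0.17 at 6 h, -0.44 at 24 h, limma adjusted p = 0.180). None passed the adjusted threshold, and all 3 depended on the scaling. With quantile normalization and in the deposited values, the difference between the later times was -0.36 and -0.35 for PSMD8, -0.21 and -0.20 for PSMB8, and -0.05 and -0.04 for PSMB9. The 6 h difference of PSMD8 was then 0.01 and 0.06, that of PSMB9 turned to -0.21 and -0.17, and the 24 h sign of PSMB8 turned too.

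Of the members that were not tested, 3 were above background on none of the arrays taken before feeding and on up to 2 arrays at a later time. PSMD11, a lid subunit, was above background on 1 array at 6 h and 2 at 24 h, UBE2B, an E2 of DNA damage tolerance, on 2 at 6 h and 2 at 24 h, and p27 probe A, an assembly chaperone, on 2 at 6 h and 0 at 24 h.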

How the results depend on the processing

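The number of probes past the threshold was unstable. At 6 h it was 5, against 8 with quantile normalization and 8 with the deposited values, and 0 with normexp, with the other percentile set (probes above background throughout), without a filter, with probes above background on all 9 arrays, with a trend and robust fit, and with only the arrays compared. A replicate block gave 620, none of them a member. Spike-in centring gave 621 at 6 h and 5731 at 24 h, 4 of the latter members, all higher. At 24 h quantile normalization and the deposited values gave 6 each. Leaving out 1 array gave 0 to 2396 probes at 6 h, and 0 to 1767 between the later times, with 0 to 1 members in both. The highest counts came without 6 h replicate 2, and 25 came at 6 h without 24 h replicate 3. At an unadjusted p under 0.05, 0 to 6 members were lower at 6 h, 2 to 7 at 24 h and 0 to 5 between the later times. These ranges cover the settings other than spike-in centring and left-out arrays. With 1 array left out they were 0 to 7, 2 to 7 and 1 to 4. The matching shares of all tested probes were not counted.

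Role medians, relative to the median of all tested probes, moved as follows. For core probes the 6 h median was -0.41 with quantile normalization and -0.40 with the deposited values, the 24 h median 0.035 with normexp and -0.055 without a filter, and the median at 24 h against 6 h 0.16, 0.19, 0.17 and 0.24 with quantile normalization, normexp, deposited values and no filter. For immunoproteasome probes the same 4 settings gave 0.37, 0.38, 0.37 and 0.40 at 24 h against 6 h, and for activator probes 0.18, 0.23, 0.18 and 0.27. At 24 h against before feeding, normexp and no filter gave -0.15 and -0.22 for immunoproteasome, -0.10 and -0.057 for activator, 0.061 and 0.072 for regulatory and 0.010 and -0.013 for ubiquitin-enzyme probes. Between the later times they gave 0.063 and 0.098 for ubiquitin-enzyme probes, no filter gave 0.23 for regulatory probes, and normexp gave -0.084 for other proteasome probes, whose 24 h median was -0.47 over probes above background on all 9 arrays. With 1 probe per gene, the immunoproteasome median was 0.13 at 6 h and -0.52 between the later times, and the regulatory median -0.33 at 6 h. Leaving out 1 array, the regulatory median at 6 h ran from -0.35 to -0.052.

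Signs of named probes turned as follows. At 24 h against 6 h, quantile normalization, normexp, deposited values and the other percentile set gave 0.43, 0.28, 0.44 and 0.21 for PSME1, 0.11, 0.16, 0.11 and 0.19 for PSME2 probe A, 0.32, 0.086, 0.33 and 0.080 for PSME2 probe B, and 0.020, 0.060, 0.021 and 0.10 for PSMB7. At 24 h against before feeding they gave 0.089, 0.18, 0.088 and 0.026 for PSMB8. Normexp gave 0.012 for PSME2 probe A at 24 h, and 0.032 at 6 h and 0.091 at 24 h for PSMB7. PSMB9 at 6 h was -0.21 with quantile normalization and -0.17 with deposited values. Leaving out 1 array, differences at 24 h against 6 h ran from -0.078 to 0.13 for PSME1, -0.11 to 0.11 for PSME2 probe A, -0.16 to 0.23 for PSMB10 probe A, -0.15 to 0.30 for probe B, -0.055 to 0.35 for probe C and -0.091 to 0.37 for beta type 3, PSMB7 at 6 h from -0.16 to 0.086 and PSMD12 at 24 h from -0.19 to 0.32. Of the 29 members, 24 kept their sign at 6 h under all 4 of these scalings, 22 at 24 h and 18 between the later times. The cause of these changes was not tested.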
